A study of Homo sapiens with 12 samples.

Results

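The EGF family ligands and their ERBB receptors were followed through 9 genes of the deposited table of 26258 genes. They were fixed by name and found through their Entrez identifiers, and they are the ligand genes *HBEGF*, *AREG*, *EREG* and *TGFA*, the receptor genes *EGFR*, *ERBB2* and *ERBB3*, the receptor inhibitor gene *ERRFI1* and the sheddase gene *ADAM17*. RNA had been sequenced from HLE cells, an established hepatocellular carcinoma cell line, to ask what YAP, TAZ and ATF4 control in cells that resist the kinase inhibitor Sorafenib. The cells carried a control siRNA (siCtrl), siRNAs against *YAP1* and *WWTR1*, the genes of YAP and TAZ (siY/T), or siRNA against *ATF4* (siATF4), and each was given DMSO as vehicle or 5 µM Sorafenib (Srf), the dose in the labels, from which the study's text differs. There were 2 libraries in each of the 6 groups, and nothing in the labels says that they came from separate cultures. The study's methods speak of biological replicates but of another number of them, so it is not settled what the 2 libraries are. If they are not separate cultures, the p-values measure the spread between these libraries, which may be technical. All groups shared the transfection, the culture medium with serum and a single cell line, the knockdowns were transient, and the labels give no length of treatment. The libraries held 41408348 to 53619732 reads on genes. Levels are given in CPM, which scales each library to a total of 1000000, and 1 read was worth 0.0186 to 0.0241 CPM.

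EGF family ligands are made as membrane-anchored precursors, and a metalloprotease such as ADAM17 cuts them free. The released ligand joins receptors of the ERBB family into pairs, which switch on the RAS-RAF-ERK and PI3K-AKT cascades. Heparin-binding EGF (HBEGF), amphiregulin (AREG), epiregulin (EREG) and TGF-alpha (TGFA) bind EGFR, and the neuregulins bind ERBB3 and ERBB4. ERBB2 has no known soluble ligand and serves as the favoured partner of the others, ERBB3 has little kinase activity and signals through its partner, and ERRFI1 (also called MIG6) binds and blocks the kinase of active EGFR. In liver, signals through EGFR take part in regeneration after injury, and Sorafenib inhibits RAF kinases, which lie below these receptors.

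Knockdown of the targets was measured first. *YAP1* lay between 259 and 280 CPM in the siCtrl libraries and between 46.6 and 57.7 CPM in the siY/T libraries, and *WWTR1* between 145 and 173 CPM against 49.3 to 68.6 CPM. *ATF4* was at 248 and 249 CPM in siCtrl and at 96.2 and 101 CPM in siATF4 libraries in DMSO. In Srf it was at 484 and 492 CPM in siCtrl and at 84.5 and 90.6 CPM in siATF4 libraries. *WWTR1* was also lower with siATF4 in DMSO, by -0.70 on the log2 scale (adjusted p = 1.29e-05), and *ATF4* was lower with siY/T in Srf, by -0.63 (adjusted p = 1.84e-07). The part of these changes in the values that follow was not tested. The siY/T DMSO libraries differed most from each other, with an SD of 0.19 of the log2 difference against 0.11 to 0.132 in the other groups. Of 8 hepatocyte markers 7 were under 0.12 CPM in each library, among them *ALB* and *HNF4A*, and *SERPINA1* reached 2.32 CPM, and of the epithelial markers *EPCAM* stayed at or under 0.701 CPM and *CDH1* at or under 7.93 CPM. The keratin *KRT8* was at 2205 to 2558 CPM in siCtrl, 655 to 998 CPM in siY/T and 1129 to 1702 CPM in siATF4 libraries. The keratin gene *KRT18* was also lower with siY/T, at 312 to 339 CPM, against 707 to 1047 CPM in siCtrl. With siATF4 it was at 1011 and 1041 CPM in DMSO, beside 1047 and 1017 CPM in siCtrl. In Srf it was at 1015 and 1089 CPM with siATF4, above siCtrl at 707 and 735 CPM. Of the mesenchymal markers, *VIM* ran from 1952 to 2916 CPM, *FN1* from 18.8 to 79.6 CPM and *CDH2* from 3.77 to 6.92 CPM. With siATF4 the means of *FN1* were 20.5 CPM in DMSO and 42.2 CPM in Srf, beside 53.2 and 78.7 CPM in siCtrl. In the same order those of *VIM* were 2184 and 1963 beside 2328 and 2904 CPM. Those of *CDH2* were 4.32 and 5.49 beside 5.26 and 5.16 CPM. The epithelial *CDH1* was at 0.0519 and 0.265 beside 0.803 and 6.19 CPM. The part of these genes in the results was not tested. Of the markers of other cell types, *PTPRC* (leukocytes), *PECAM1* (endothelium) and *DCN* (fibroblasts) were at or under 0.0468 CPM. *CD68* ran from 19.8 to 75.0 CPM and *PDGFRB* from 7.15 to 79.3 CPM over the libraries. With siATF4 the means of *CD68* were higher, 73.5 CPM in DMSO and 61.7 CPM in Srf, beside 20.4 and 23.0 CPM in siCtrl. Those of *PDGFRB* were lower, 7.51 and 18.4 beside 43.9 and 79.2 CPM. The part of these markers in the results was not tested. In bulk RNA, fewer cells that express a gene and less RNA per cell cannot be told apart.

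Loss of ATF4 raised *HBEGF* 5.38-fold, *EREG* 2.18-fold and *AREG* 2.07-fold in DMSO, where *AREG* entered the test only through the siATF4 groups in which it was high. Loss of ATF4 lowered the receptor gene *ERBB3* 2.8-fold. Loss of YAP/TAZ lowered *HBEGF* 3.47-fold and *ERBB3* 2.88-fold. Srf lowered *HBEGF*, *EREG* and *ERRFI1* and raised *ERBB3* in siCtrl cells, by 1.86-, 1.56-, 1.59- and 1.88-fold. *EGFR* stayed between 211 and 295 CPM in all libraries and passed the threshold in no comparison. Fold changes are on the scale of log2(CPM + 0.5), which understates the change of low genes, and a gene was called changed at an unadjusted P under 0.05 by limma with a log2 change of at least 0.58 in size.

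To set genes side by side, CPM was divided by the length of 1 GENCODE transcript per gene, 9905 bases for *EGFR* and 2358 for *HBEGF*. The authors had counted reads over exons of RefSeq mRNAs, whose lengths may differ. The order of the genes is therefore approximate. The mean over the 6 groups was 57 CPM per kilobase for *ERRFI1*, 25.4 for *EGFR*, 23.9 for *ERBB2*, 18.6 for *ADAM17* and 11.1 for *ERBB3*. *HBEGF* followed at 7.04 CPM per kilobase, with group means from 0.912 to 23.4. In siATF4 DMSO cells its 23.4 was, on these lengths, above *ADAM17* at 17.9, *ERBB2* at 16.5 and *ERBB3* at 4.45. *EGFR* was at 22.0 there, and whether *HBEGF* lay above it depends on the lengths used. On the mean it was ahead of the neuregulin genes *NRG2* at 5.02 and *NRG1* at 3.12. *AREG*, *EREG* and *TGFA* were at 0.583, 0.318 and 0.224 CPM per kilobase. The other ligand genes *EGF*, *BTC*, *EPGN*, *NRG3* and *NRG4* had 1 to 5 reads over all 12 libraries together and were not tested, and the fourth receptor gene, *ERBB4*, was at 0.0595 CPM per kilobase.

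The sequences before the start sites of the 3 ligand genes that rose together with siATF4 are shown, since a reader may want to look for binding sites of the factors that were depleted. They are the 250 bases upstream of the start site in RefSeq's annotation of GRCh38.p14, on the gene's own strand, with matches to the motifs searched in capitals.
*HBEGF*, chr5:140346604-140346853, minus strand: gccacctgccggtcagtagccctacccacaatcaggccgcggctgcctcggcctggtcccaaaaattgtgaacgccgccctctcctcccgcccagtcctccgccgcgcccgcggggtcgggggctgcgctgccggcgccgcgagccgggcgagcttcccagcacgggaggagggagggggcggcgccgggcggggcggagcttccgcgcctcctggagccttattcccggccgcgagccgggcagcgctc
*EREG*, chr4:74364895-74365144, plus strand: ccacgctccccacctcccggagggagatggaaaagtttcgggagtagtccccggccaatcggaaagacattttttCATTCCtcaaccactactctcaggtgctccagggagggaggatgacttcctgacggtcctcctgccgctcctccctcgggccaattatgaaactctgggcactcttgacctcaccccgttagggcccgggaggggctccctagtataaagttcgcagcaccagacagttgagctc
*AREG*, chr4:74444886-74445135, plus strand: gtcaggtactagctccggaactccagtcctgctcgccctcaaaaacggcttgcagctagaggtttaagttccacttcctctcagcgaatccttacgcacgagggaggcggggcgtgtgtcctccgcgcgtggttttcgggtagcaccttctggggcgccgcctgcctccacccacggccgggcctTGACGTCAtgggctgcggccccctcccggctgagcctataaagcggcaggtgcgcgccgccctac

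The motifs searched on both strands were GGAATG for TEAD factors, the DNA-binding partners of YAP and TAZ, TGANTCA for AP-1, TGATGNAA for the ATF4 composite site and TGACGTCA for the cAMP response element (CRE). In the window from 250 bases before to 50 bases after the start, *EREG* held the TEAD letters on the reverse strand, 175 bases before the start, and *AREG* held the CRE letters 65 bases before it. *HBEGF* held none of the 4 motifs. Of the other members with an entry, *EGFR* held AP-1 letters 232 and 136 bases and TEAD letters 114 bases before its second start site, *ERBB2* AP-1 letters at 222 bases and *ADAM17* TEAD letters at 227 bases, and *TGFA* and *ERRFI1* held none. In all, 8 of the 9 members were matched to 10 promoter entries, and *ERBB3* was not. Among all 35116 promoters of this length 14% held the TEAD letters, 7.71% the AP-1 letters, 1.85% the CRE and 3.62% the ATF4 composite, and a match describes the letters of a window only. The matches named did not overlap each other.

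*HBEGF* (Entrez 1839), on the minus strand of GRCh37 at chr5:139712428-139726188, was the member whose level varied most. In DMSO its level was 9.66 and 10.0 CPM in the siCtrl libraries, 3.04 and 2.00 CPM in the siY/T libraries and 55.6 and 54.7 CPM in the siATF4 libraries. With Srf it was 4.94 and 5.19 CPM in siCtrl, 1.78 and 2.52 CPM in siY/T and 24.2 and 25.6 CPM in siATF4 libraries. The siATF4 libraries were the highest and the siY/T libraries the lowest under both treatments, and the only neighbours in the order of the 6 groups whose libraries overlapped were the siY/T groups with and without Srf. In DMSO the log2 change of *HBEGF* was -1.80 with siY/T (SE 0.146, adjusted p = 3.65e-07) and 2.43 with siATF4 (SE 0.146, adjusted p = 1.08e-08). In Srf it was -1.08 with siY/T (adjusted p = 4.95e-05) and 2.19 with siATF4 (adjusted p = 1.93e-08). Set against each other directly, siATF4 cells were above siY/T cells by 4.22 in DMSO, which is 18.7-fold, and by 3.27 in Srf, which is 9.66-fold.

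Srf lowered *HBEGF* by -0.89 in siCtrl cells (adjusted p = 0.000139) and by -1.14 in siATF4 cells (adjusted p = 3.67e-05). In siY/T cells, which were already lowest, the change with Srf was -0.18 with a 95% confidence interval from -0.50 to 0.13 (adjusted p = 0.306). The effect of siY/T on *HBEGF* was thus smaller in size in Srf than in DMSO, by 0.71 (SE 0.206, adjusted p = 0.0269), and this difference of effects lost its call without either siCtrl DMSO library, without either siCtrl Srf library and without the second siY/T Srf library, with values from 0.51 to 0.74 and adjusted p from 0.0623 to 0.0984. The effect of siATF4 on it differed between treatments by -0.24, with an interval from -0.69 to 0.20 (adjusted p = 0.373).

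**Figure D1:**
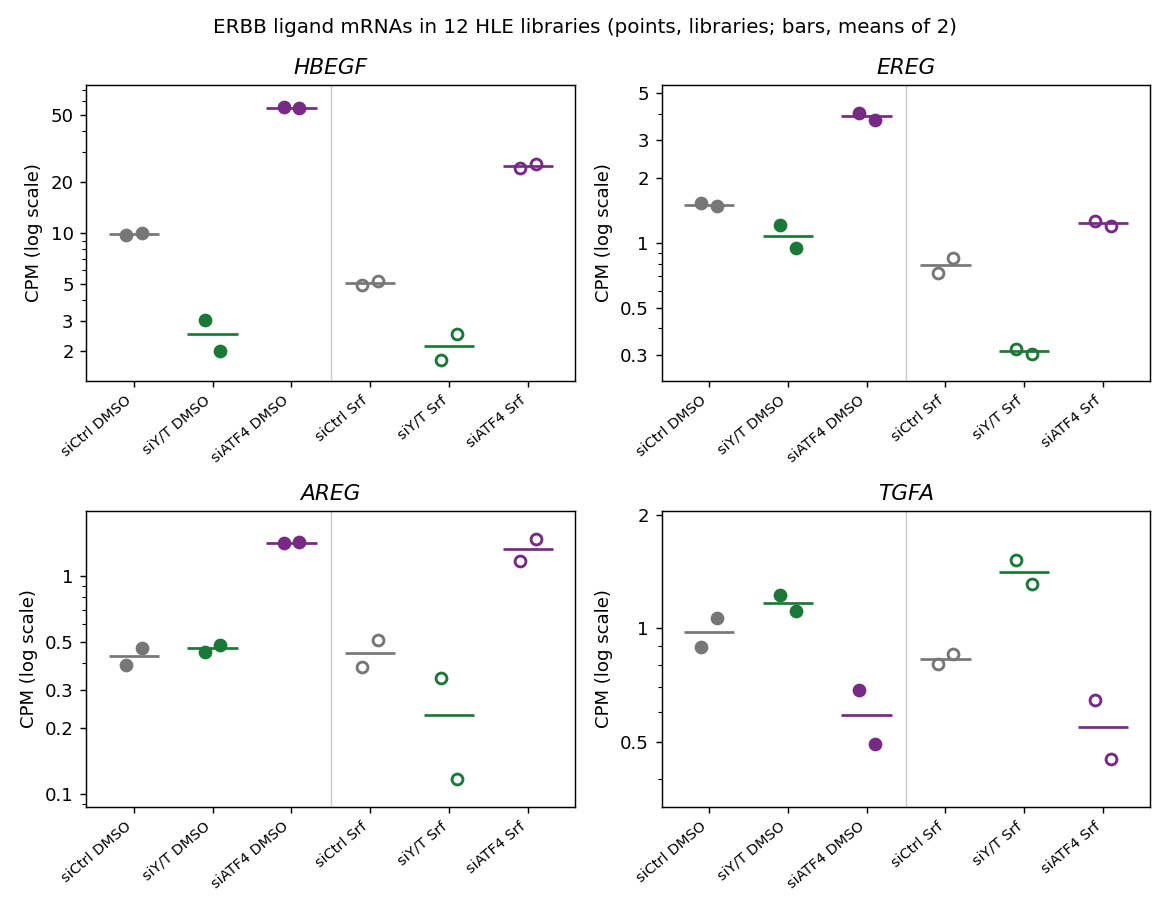
Levels of the 4 ligand genes *HBEGF*, *EREG*, *AREG* and *TGFA* in CPM on a log scale in the 12 libraries, with filled points for DMSO, open points for Srf and a bar at the mean of the 2 libraries of each group. *HBEGF* reaches 55.6 CPM in siATF4 DMSO cells and falls to 1.78 CPM in siY/T Srf cells, whereas *TGFA* is lowest in the siATF4 groups.

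*EREG* (Entrez 2069), on the plus strand at chr4:75230862-75254466 of GRCh37, encodes epiregulin, a ligand of EGFR and ERBB4. It was measured at 1.53 and 1.49 CPM in siCtrl, 1.21 and 0.942 CPM in siY/T and 4.03 and 3.74 CPM in siATF4 libraries in DMSO. In Srf it was at 0.726 and 0.855 CPM in siCtrl, 0.321 and 0.304 CPM in siY/T and 1.27 and 1.2 CPM in siATF4 libraries. Every Srf library was thus below every DMSO library of the same siRNA, and siATF4 was highest within each treatment. These levels rest on 13 to 189 reads per library, and the siATF4 Srf and siY/T DMSO libraries overlapped.

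With siATF4 *EREG* rose by 1.13 in DMSO (SE 0.119, adjusted p = 2.24e-06), and in Srf its change was 0.43 (adjusted p = 0.00547), short of the fold threshold. With siY/T the change was -0.36 in DMSO (adjusted p = 0.0204), also short of it, and *EREG* fell by -0.67 in Srf (adjusted p = 0.000503). Srf lowered it by -0.64 in siCtrl (adjusted p = 0.000417), -0.95 in siY/T (adjusted p = 2.80e-05) and -1.34 in siATF4 cells (adjusted p = 1.82e-06), and without the first siCtrl Srf library the first of these was -0.57 and not called. With a pseudocount of 1 it was -0.49 and the change with siY/T in Srf -0.45, neither called, and with quantile normalization the latter was -0.52 and not called. The effect of siATF4 was smaller in Srf than in DMSO, by -0.70 (SE 0.169, adjusted p = 0.00536), a difference that was not called with quantile normalization (-0.39) or by DESeq2 (-0.71). Tested by edgeR on the whole reads instead, the changes of this low gene were larger, -1.39 with siY/T in Srf and -1.82 with Srf in siY/T cells, and the rise with siATF4 in Srf was 0.65 and called.

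*AREG* (Entrez 374) encodes amphiregulin and lies at chr4:75310853-75320722 on the plus strand, 56386 bases beyond the end of *EREG*. It was at 0.392 and 0.466 CPM in siCtrl, 0.449 and 0.483 CPM in siY/T and 1.41 and 1.43 CPM in siATF4 libraries in DMSO. The Srf values were 0.383 and 0.509 CPM in siCtrl, 0.342 and 0.117 CPM in siY/T and 1.18 and 1.48 CPM in siATF4 libraries. The 4 siATF4 libraries were above all others, and because only they reached 1 CPM, *AREG* entered the test through the groups in which it was high. The change with siATF4 was 1.05 in DMSO (SE 0.158, adjusted p = 5.94e-05) and 0.95 in Srf (adjusted p = 0.000118), on 62 to 72 reads per siATF4 library and 19 to 25 per siCtrl library. By edgeR on the whole reads these were 1.74 and 1.57. By limma no change of *AREG* with Srf was called, and its values there were between -0.42 and 0.02 over the 3 siRNAs. With siY/T in Srf its change was between -0.99 and -0.16 over the alternatives and was called by edgeR and DESeq2 but not by limma. By edgeR the change with Srf in siY/T cells was -1.01 and called, on 16 and 5 reads in Srf.

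The reads of *AREG* carry a particular limit. On GRCh37 a near-identical copy, *AREGB*, lies at chr4:75480629-75490486, and the authors kept only reads with a single place in the genome. Over the 1234 bases of the *AREG* transcript the copy differs at 1 base, G240A, counted from 1 at the 5′ end of the transcript, where the coding sequence starts at base 211. The first 59 bases of the coding sequence are shown for both copies, with the differing base in capitals, because a read has to cover that base to be placed.
*AREG*, chr4:75311063-75311121, plus strand: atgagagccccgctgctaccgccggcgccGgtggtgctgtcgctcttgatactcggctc
*AREGB*, chr4:75480839-75480897, plus strand: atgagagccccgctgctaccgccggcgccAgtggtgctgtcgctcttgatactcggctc
Of 1154 windows of 81 bases along the *AREG* transcript, 1073 occur in *AREGB* too, which leaves 7.02% that could be placed. For windows of 75 bases the share is 6.47%. *AREGB* has no row of its own in the table. The level of *AREG* is therefore a lower limit for amphiregulin mRNA, and its place below *HBEGF* per kilobase cannot be read as an order of the transcripts. The same stretch of the reference was open to placement in all groups.

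**Figure D2:**
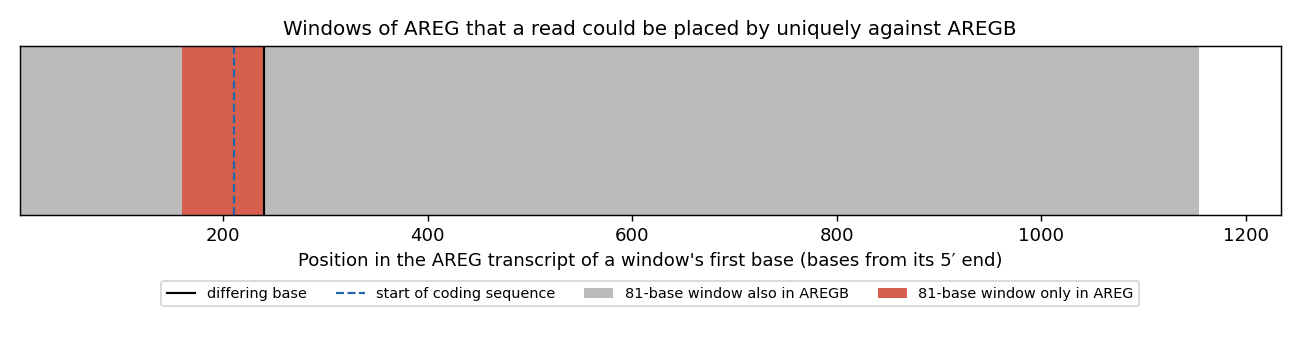
First base of each 81-base window along the *AREG* transcript, in bases from its 5′ end, coloured by whether the window also occurs in *AREGB*, with lines at the differing base and at the start of the coding sequence. Of the 1154 windows, 81 occur in *AREG* only, and they all cover base 240.

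*TGFA* (Entrez 7039), on the minus strand at chr2:70674416-70781325, encodes TGF-alpha. It was at 0.895 and 1.07 CPM in siCtrl, 1.23 and 1.11 CPM in siY/T and 0.686 and 0.495 CPM in siATF4 libraries in DMSO. In Srf the values were 0.806 and 0.855 CPM in siCtrl, 1.52 and 1.31 CPM in siY/T and 0.645 and 0.449 CPM in siATF4 libraries. It reached 1 CPM in the 4 siY/T libraries and 1 siCtrl DMSO library, so it entered the test through the siY/T groups in which it was high. Under both treatments *TGFA* was highest in siY/T and lowest in siATF4 cells, the reverse of *HBEGF*. Against siCtrl none of its changes was called by limma, with 0.52 for siY/T in Srf the largest in size (adjusted p = 0.00758), whereas edgeR on the whole reads called that one at 0.71 and siATF4 in DMSO at -0.72. Between the knockdowns, siATF4 cells were below siY/T cells by -0.62 in DMSO (adjusted p = 0.00119) and by -0.87 in Srf (adjusted p = 6.38e-05). The DMSO value fell short of the threshold without the first siY/T DMSO library, at -0.57, and without the second siATF4 DMSO library, at -0.49, and with a pseudocount of 1, at -0.45. With quantile normalization neither was called, at -0.16 and -0.41.

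The neuregulin genes moved otherwise. *NRG1* was at 48.7 and 48.8 CPM in siCtrl, 29.5 and 28.6 CPM in siY/T and 48.4 and 47.8 CPM in siATF4 libraries in DMSO. It fell with siY/T by -0.74 in DMSO (adjusted p = 1.08e-07) and by -0.60 in Srf (adjusted p = 9.71e-07), and with siATF4 its changes were -0.02 and -0.21, neither called. *NRG2* lay between 14.1 and 24.9 CPM in all libraries and passed the fold threshold in none of the 9 comparisons between groups by limma, although 7 of them had an unadjusted P under 0.05.

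*EGFR* (Entrez 1956), on the plus strand at chr7:55086710-55279321, encodes the receptor that binds the 4 ligands above. In DMSO it was at 242 and 234 CPM in siCtrl, 219 and 242 CPM in siY/T and 211 and 225 CPM in siATF4 libraries. With Srf it was at 288 and 295 CPM in siCtrl, 267 and 230 CPM in siY/T and 294 and 277 CPM in siATF4 libraries. Libraries of neighbouring groups overlapped in 4 of the 5 steps of the order. Its changes with Srf were 0.29 in siCtrl (adjusted p = 0.00198), 0.11 in siY/T (adjusted p = 0.203) and 0.39 in siATF4 cells (adjusted p = 0.000384), all short of the fold threshold. With siY/T in DMSO the change was -0.05, with an interval from -0.19 to 0.10, and with siATF4 it was -0.13, with an interval from -0.27 to 0.02. In Srf it was -0.23 with siY/T, with an interval from -0.38 to -0.09 (adjusted p = 0.0118), and -0.03 with siATF4, with an interval from -0.17 to 0.12. An antisense gene, *EGFR-AS1*, overlaps the locus, and since the strand setting of the counting is not given in the sources used here, its reads cannot be told apart from those of *EGFR*.

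*ERBB2* (Entrez 2064), on the plus strand at chr17:37844167-37886679, encodes the partner receptor HER2. It was at 109 and 106 CPM in siCtrl, 109 and 116 CPM in siY/T and 74.3 and 76.1 CPM in siATF4 libraries in DMSO. In Srf the values were 144 and 144 CPM in siCtrl, 125 and 129 CPM in siY/T and 87.2 and 88.9 CPM in siATF4 libraries. None of the 6 groups overlapped another, and both siATF4 groups were below the 4 others. The change with siATF4 was -0.51 in DMSO (SE 0.0434, adjusted p = 2.85e-07), under the fold threshold, and -0.71 in Srf (adjusted p = 9.13e-09), past it. Against siY/T cells it was -0.58 in DMSO (adjusted p = 3.81e-08), at the edge of the threshold, and -0.53 in Srf (adjusted p = 9.73e-08). Without the second siY/T DMSO library the former was -0.54 and without the first siATF4 DMSO library -0.56, and neither was called, nor was it with a pseudocount of 1, TMM scaling, quantile normalization, edgeR or DESeq2. The changes with Srf were above 0 in each siRNA and under the threshold, with 0.42 in siCtrl the largest (adjusted p = 2.60e-06). The siY/T effect on *ERBB2* differed between treatments by -0.25 (adjusted p = 0.0123), which was not called without the second siCtrl DMSO library (-0.23, adjusted p = 0.0604). The siATF4 effect differed by -0.19 (adjusted p = 0.0227), which was not called without the second siCtrl DMSO, either siCtrl Srf, the second siATF4 DMSO or the first siATF4 Srf library, with values from -0.20 to -0.18. The genes *PGAP3* and *MIEN1* overlap this locus on the other strand.

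*ERBB3* (Entrez 2065), on the plus strand at chr12:56470583-56497289, encodes the neuregulin receptor HER3. Among the receptor genes of the members it was the one that changed most. In DMSO it was at 70.8 and 70.6 CPM in siCtrl, 23.0 and 25.6 CPM in siY/T and 23.4 and 26.5 CPM in siATF4 libraries. With Srf it rose to 134 and 133 CPM in siCtrl, 39.7 and 42.0 CPM in siY/T and 83.8 and 79.6 CPM in siATF4 libraries. The knockdown groups overlapped in DMSO and stood apart in Srf, where siATF4 cells were above siCtrl cells in DMSO. The log2 change was -1.52 with siY/T (SE 0.0655, adjusted p = 2.51e-09) and -1.49 with siATF4 (adjusted p = 6.01e-10) in DMSO. In Srf it was -1.69 with siY/T (adjusted p = 1.68e-09) and -0.70 with siATF4 (adjusted p = 5.03e-07). Between the knockdowns the difference was 0.04 in DMSO, with an interval from -0.10 to 0.18, and 0.99 in Srf (adjusted p = 9.92e-09).

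Srf raised *ERBB3* by 0.91 in siCtrl (adjusted p = 1.24e-07), 0.74 in siY/T (adjusted p = 1.52e-06) and 1.69 in siATF4 cells (adjusted p = 2.47e-09), the last a 3.23-fold rise. The effect of siATF4 on *ERBB3* was smaller in size in Srf than in DMSO by 0.78 (SE 0.0926, adjusted p = 3.64e-05), and that of siY/T differed by -0.17, with an interval from -0.37 to 0.03 (adjusted p = 0.204). *ERBB4*, at 0.158 to 1.38 CPM, fell with siATF4 by -0.77 in DMSO (adjusted p = 0.00156) and -0.80 in Srf (adjusted p = 0.00104). These values rest on 8 to 20 reads per siATF4 library and 27 to 47 per siCtrl library. *ERBB4* reached 1 CPM only in siY/T libraries, so it entered the test through groups in which it was high. The alternatives were followed for the members only. A second protein-coding gene model overlaps *ERBB3* on the same strand, and reads shared by both cannot be split.

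**Figure D3:**
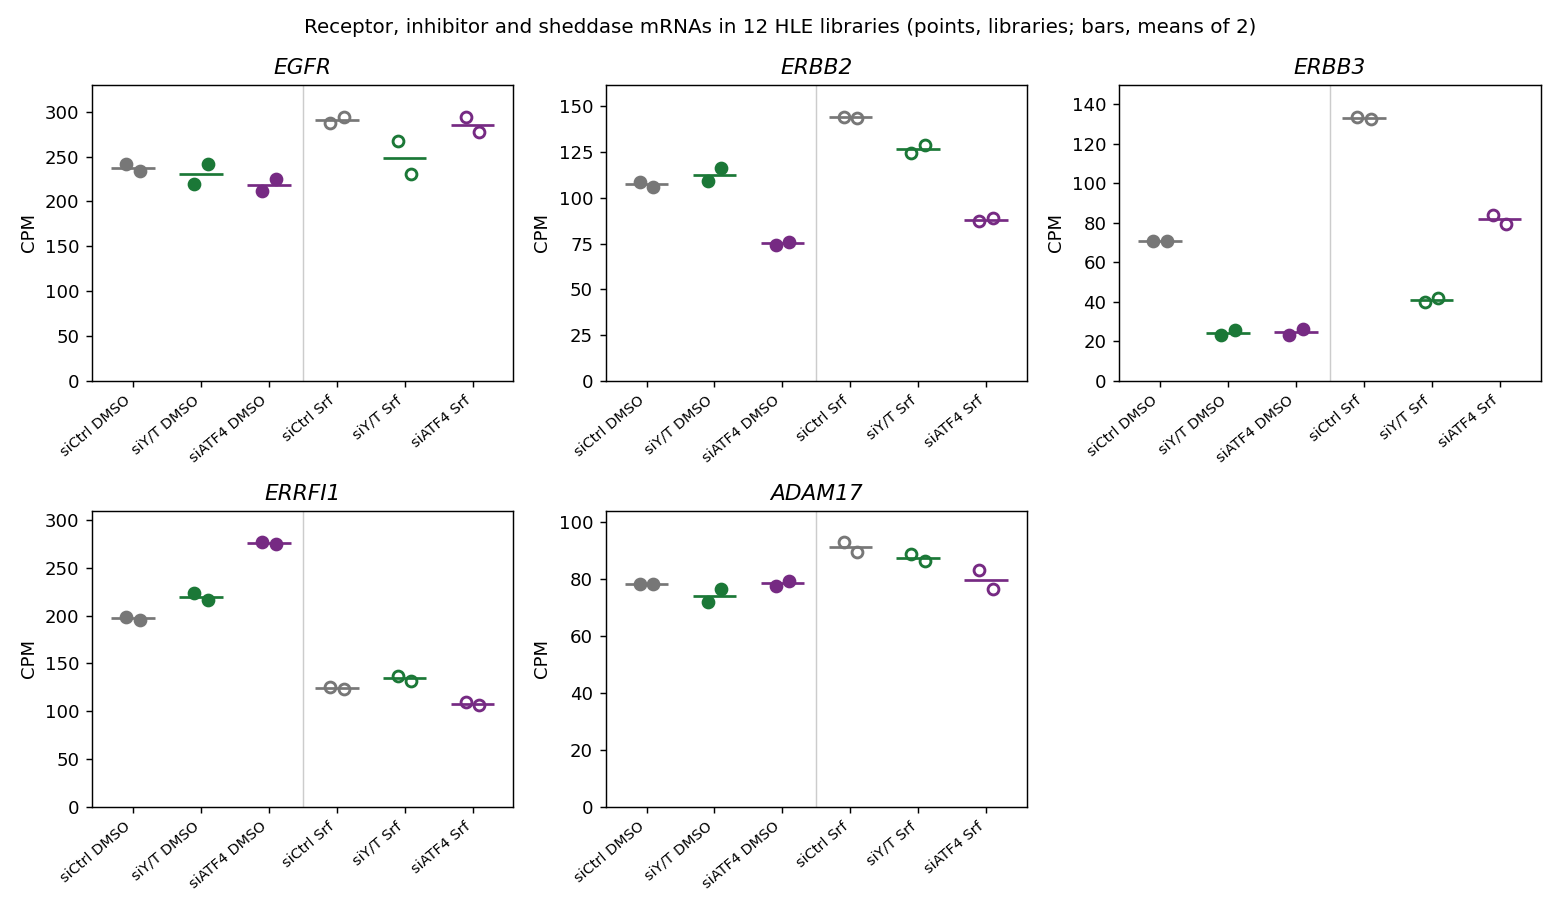
Levels of *EGFR*, *ERBB2*, *ERBB3*, *ERRFI1* and *ADAM17* in CPM, on linear axes from 0, in the 12 libraries, with filled points for DMSO, open points for Srf and a bar at the mean of the 2 libraries. *ERBB3* is near 25 CPM in both knockdowns in DMSO, and *ERRFI1* is lower in all 6 Srf libraries than in all 6 DMSO libraries.

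*ERRFI1* (Entrez 54206), on the minus strand at chr1:8064464-8086369, encodes the feedback inhibitor of EGFR. In DMSO it was at 199 and 195 CPM in siCtrl, 223 and 216 CPM in siY/T and 277 and 275 CPM in siATF4 libraries. With Srf it was at 125 and 123 CPM in siCtrl, 137 and 131 CPM in siY/T and 109 and 107 CPM in siATF4 libraries. All Srf libraries were below all DMSO libraries, and siATF4 cells were highest in DMSO and lowest in Srf. Srf lowered *ERRFI1* by -0.66 in siCtrl (SE 0.0398, adjusted p = 2.82e-08), -0.71 in siY/T (adjusted p = 2.95e-08) and -1.35 in siATF4 cells (adjusted p = 3.94e-10). The changes with siATF4 were 0.48 in DMSO (adjusted p = 2.15e-07) and -0.20 in Srf (adjusted p = 0.000484), both under the fold threshold, and their difference was -0.68 (SE 0.0563, adjusted p = 2.64e-06). A lncRNA gene overlaps the locus on the other strand.

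*ADAM17* (Entrez 6868), on the minus strand at chr2:9628615-9696861, encodes the main sheddase of these ligands and varied least along with *EGFR*. It was at 78.3 and 78.1 CPM in siCtrl, 71.9 and 76.5 CPM in siY/T and 77.6 and 79.5 CPM in siATF4 libraries in DMSO. In Srf it was at 92.9 and 89.6 CPM in siCtrl, 88.8 and 86.4 CPM in siY/T and 83.1 and 76.6 CPM in siATF4 libraries. The siCtrl and siY/T libraries were higher in Srf than in DMSO, and the siATF4 libraries overlapped. None of its 9 changes between groups was called, and they ran from -0.19 to 0.24. The effect of siATF4 differed between treatments by -0.20 (adjusted p = 0.0408), a call that was lost without any one of 7 of the 8 libraries in it, with adjusted p from 0.0581 to 0.158. *IAH1* overlaps *ADAM17* on the other strand.

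Counted over the 9 members, each comparison is read against all 13515 genes tested, and the comparisons share libraries, so their counts are not independent. With siY/T in DMSO 2 members were lowered (*HBEGF*, *ERBB3*) and 0 raised by limma, where 3.61% of all genes were lowered and 11% raised. At an unadjusted P under 0.05 alone 1 member was higher there (*ERRFI1*), and edgeR and DESeq2 called 0 raised. With siATF4 in DMSO 1 was lowered (*ERBB3*) and 3 were raised (*HBEGF*, *AREG*, *EREG*), against 14.1% and 8.57% of all genes. In Srf, siY/T lowered 3 members (*HBEGF*, *EREG*, *ERBB3*) and raised 0 by limma, against 3.84% and 6.11% of all genes. At an unadjusted P under 0.05 alone 2 were higher there (*TGFA*, *ERRFI1*), and edgeR and DESeq2 each called 1 raised (*TGFA*) and 4 lowered, *AREG* being the one added. In Srf siATF4 lowered 2 (*ERBB2*, *ERBB3*) and raised 2 (*HBEGF*, *AREG*), against 18.7% and 10.3%. Between siATF4 and siY/T cells 2 members were lower (*TGFA*, *ERBB2*) and 3 higher in DMSO, against 22.7% and 13% of all genes, and 1 was lower (*TGFA*) and 4 were higher in Srf, against 23.7% and 14.8%. *AREG* is among the members raised only because the siATF4 libraries carried it past the filter, and *TGFA* among those lower in siATF4 than in siY/T cells only because the siY/T libraries did.

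Srf lowered 3 members in siCtrl cells (*HBEGF*, *EREG*, *ERRFI1*) and raised 1 (*ERBB3*), where 5.15% of all genes were lowered and 12.3% raised. It lowered 2 (*EREG*, *ERRFI1*) and raised 1 (*ERBB3*) in siY/T cells, against 4.14% and 5.83%, and lowered 3 (*HBEGF*, *EREG*, *ERRFI1*) and raised 1 (*ERBB3*) in siATF4 cells, against 2.95% and 5.68%. The median log2 change of the 9 members was near 0 in these comparisons, 0.02 in siCtrl, 0.11 in siY/T and -0.06 in siATF4 cells, beside 0.05, 0.04 and 0.03 over all genes. The siY/T effect differed between treatments for 1 member in each direction (*HBEGF* and *ERBB2*), where 14.2% of all genes were called below 0 and 7.81% above it. The siATF4 effect differed for 4 members below 0 (*EREG*, *ERBB2*, *ERRFI1*, *ADAM17*) and 1 above it (*ERBB3*), where 21.8% and 19.3% of all genes were called, so that a difference of effects was common among all genes.

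**Figure D4:**
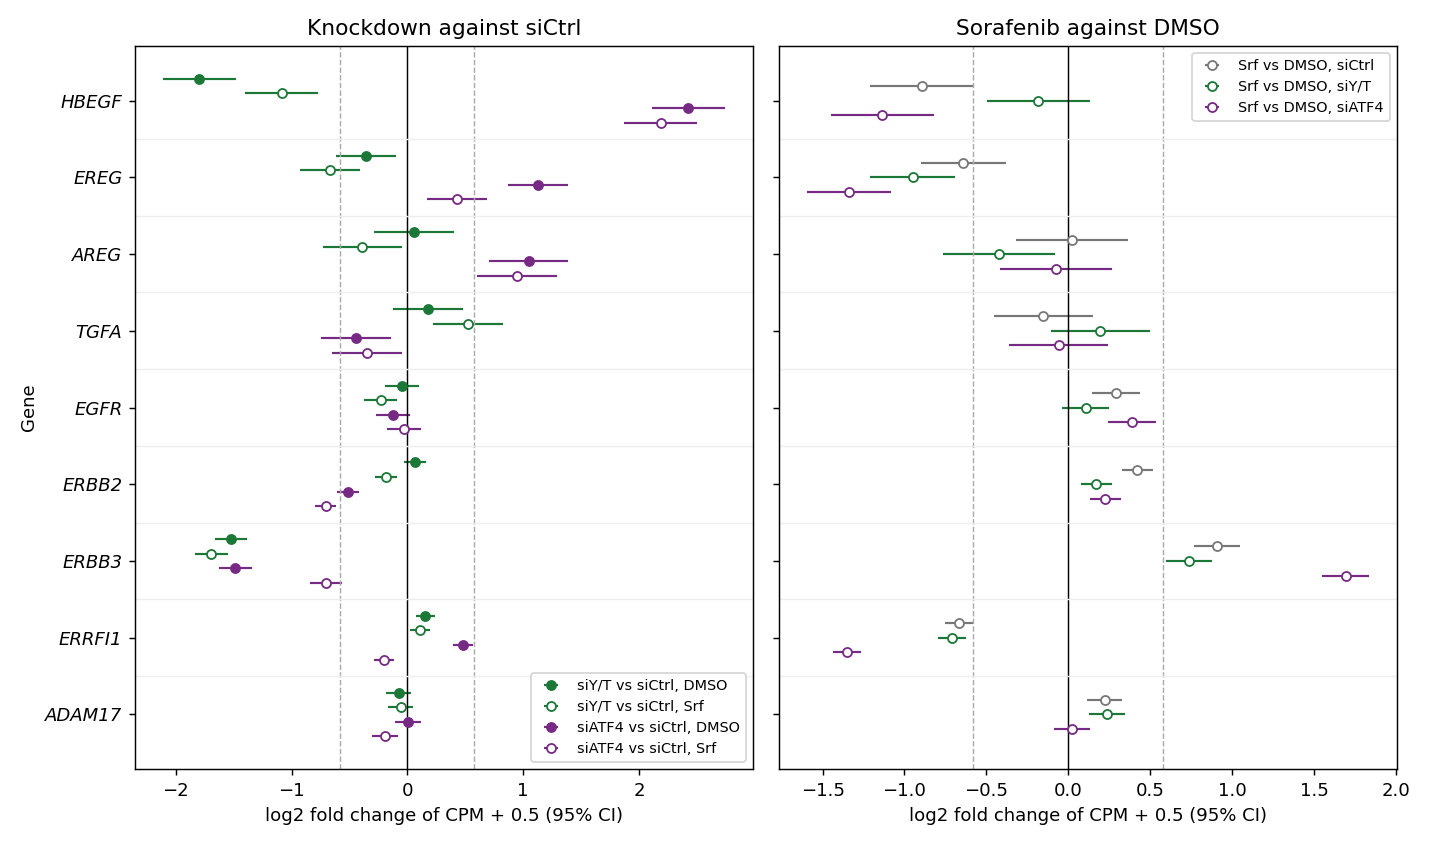
Log2 fold change of CPM + 0.5 with its 95% confidence interval for each of the 9 genes, on the left for each knockdown against siCtrl (filled, DMSO; open, Srf) and on the right for Srf against DMSO in each siRNA. Dashed lines mark the threshold of 0.58, and *HBEGF* lies at -1.80 with siY/T and at 2.43 with siATF4 in DMSO.

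Another 62 genes of the pathway were taken from lists, of which 57 were tested. The list of 14 ERK output genes, the feedback regulators and early targets that ERK switches on, is described first. With siATF4 in DMSO 11 of 14 rose and 0 fell by limma, with a median of 1.30 beside -0.00132 over all genes, and at an unadjusted P under 0.05 alone 13 were higher and 0 lower. Of all genes 8.57% were raised there and 14.1% lowered. The phosphatase gene *DUSP4*, one of the 11, entered the test only through the siATF4 DMSO libraries, and *EGR1* only through the DMSO libraries, and without both 9 of 12 rose. In Srf again 11 rose and 0 fell, with 13 higher and 1 lower at that P, against 10.3% of all genes raised and 18.7% lowered. Without *DUSP4* and *EGR1* 10 of 12 rose there. The phosphatase gene *DUSP5* rose by 2.90, *SPRY4*, a feedback inhibitor of RAS-ERK signalling, by 2.48, and the ERK phosphatase gene *DUSP6* by 2.33 in DMSO. With Srf 11 fell and 0 rose in siCtrl cells, with a median of -1.28 beside 0.05 over all genes, led by the early transcription factor gene *EGR1* at -3.07, *SPRY4* at -2.12 and *ETV5*, an ETS factor gene, at -1.65, and at an unadjusted P under 0.05 alone 13 were lower and 0 higher. Of all genes 5.15% were lowered there and 12.3% raised, and without *EGR1* and *DUSP4* 10 of 12 fell. Srf lowered 10 of them in siY/T and 11 in siATF4 cells and raised 0 in both, with 1 and 0 higher at that P. Of all genes 4.14% and 2.95% were lowered there and 5.83% and 5.68% raised. Without *EGR1* and *DUSP4* 9 of 12 fell in each. With siY/T in DMSO 5 rose and 1 fell, against 11% of all genes raised and 3.61% lowered. Without the same 2 genes 4 of 12 rose and 1 fell. *EGR1* rose by 2.52, *SPRY4* by 1.48 and *DUSP6* by 1.46, whereas *FOSL1*, an AP-1 subunit gene, fell by -0.70. With siY/T in Srf 6 rose and 1 fell, against 6.11% of all genes raised and 3.84% lowered. Without *DUSP4* and *EGR1* 5 of 12 rose and 1 fell there. *FOSL1* was singled out after its values were seen. In DMSO it was at 215 and 199 CPM in siCtrl, 141 and 114 CPM in siY/T and 547 and 539 CPM in siATF4 libraries. In Srf it was at 80.8 and 86.8 CPM in siCtrl, 43.1 and 30.4 CPM in siY/T and 337 and 348 CPM in siATF4 libraries. Within each treatment this was the order of groups of *HBEGF*. Over all 6 groups it was not, since *FOSL1* was higher in siY/T DMSO than in siCtrl Srf libraries and *HBEGF* lower.

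Of the 9 sheddases and their partners 3 fell and 0 rose by limma with siATF4 in DMSO, and 5 fell and 0 rose in Srf, with 1 and 2 higher at an unadjusted P under 0.05 alone. Of all genes 14.1% and 18.7% were lowered and 8.57% and 10.3% raised. *ADAM10*, the other main ligand sheddase, went from 154 and 162 CPM in siCtrl to 66.2 and 67.0 CPM in siATF4 libraries in DMSO, a change of -1.24 (adjusted p = 1.71e-07), and by -1.16 in Srf (adjusted p = 2.32e-07). *TIMP3*, an inhibitor of ADAM17, fell by -1.66 and -1.27, at a level of no more than 3.14 CPM. It reached 1 CPM only in the 8 siCtrl and siY/T libraries. *TIMP3* thus entered the test through the groups in which it was high, and it is among the 3 and 5 counted above. *RHBDF2*, which escorts ADAM17 to the cell surface, fell with siATF4 in Srf by -0.97. With siY/T 0 of 9 were called by limma in DMSO, where 1 was lower and 5 were higher at an unadjusted P under 0.05 alone, and 1 fell in Srf (*TIMP3*). Of all genes 3.61% and 3.84% were lowered there and 11% and 6.11% raised. With Srf in siCtrl cells 0 were called, where 2 were lower and 5 higher at that P. Of all genes 5.15% were lowered in that comparison and 12.3% raised.

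Among 14 adaptors and signal transducers 2 fell and 1 rose with siATF4 in DMSO, and the numbers were the same in Srf. These shares are near those of all genes, 14.1% lowered and 8.57% raised in DMSO and 18.7% and 10.3% in Srf. The GTPase gene *NRAS* fell by -1.11, the docking protein gene *GAB1* by -0.88, and *PTPN11*, the gene of the phosphatase SHP2, rose by 0.65. With siY/T in DMSO *PTPN11* fell by -0.65 and *STAT3* rose by 0.62, where 3.61% of all genes were lowered and 11% raised. In Srf 1 rose with siY/T (*STAT3*), a share near the 6.11% of all genes raised there. Srf in siCtrl cells lowered 1, the adaptor gene *SHC1*, by -0.82, a share near the 5.15% of all genes lowered. Among 17 genes of receptor attenuation and endocytosis, 3 rose and 0 fell by limma with siY/T in DMSO and in Srf, with 4 and 2 lower at an unadjusted P under 0.05 alone. Of all genes 11% and 6.11% were raised. They were *LRIG3*, at 45.3 and 51.8 CPM in siCtrl against 115 and 121 CPM in siY/T DMSO libraries, the ubiquitin ligase gene *CBLB*, which rose by 1.19, and *LRIG1*, a negative regulator of ERBB receptors, which rose by 0.64. With siATF4 in DMSO 2 fell, the endocytic adaptor genes *SH3KBP1* by -1.14 and *EPS15* by -0.89, and 1 rose (*LRIG1*, 0.71), and in Srf 3 fell and 0 rose, with 6 higher at that P, shares near or under those of all genes. With Srf in siCtrl cells 1 rose (*CBLB*, 0.58), where 12.3% of all genes were raised.

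**Figure D5:**
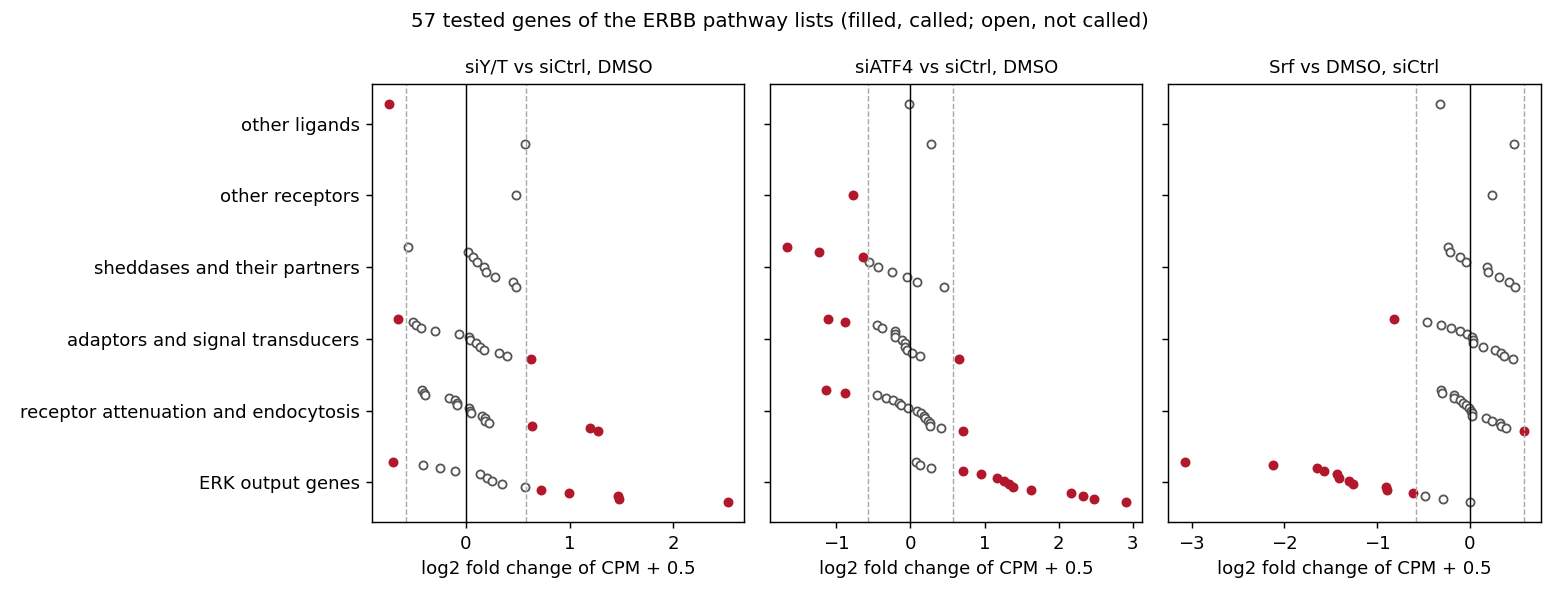
Log2 fold change of CPM + 0.5 of the 57 tested list genes for siY/T and siATF4 against siCtrl in DMSO and for Srf against DMSO in siCtrl cells, by list, with filled points for genes called changed and dashed lines at 0.58 in either direction. Of the 14 ERK output genes, 11 are called to the right with siATF4 and 11 to the left with Srf.

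Among genes whose mean reached 5 CPM, those whose log2 levels followed each called member most closely over the 12 libraries were named as a description, by Pearson's r. *EGFR*, never called, was left out. The libraries share groups, so r mostly reflects the 6 group means. *HBEGF* was followed by *RPIA* (r = 0.993) and *MRRF* (0.992), *EREG* by *ANGPTL4* (0.990), *EIF6* (0.988) and *CLN8* (0.988), and *AREG* by *RSKR* (0.987), *PLEKHM1* (0.982) and *MSTO1* (0.981). The closest to *TGFA* were *CRIPT* (0.961) and *PCGF3* (0.957). *ERBB2* was followed by *LAMA5* (0.993), *CNTNAP1* (0.993) and *PACSIN3* (0.992), and *ERBB3* by *RECK* (0.982), *TENT5B* (0.970) and *MORC4* (0.966). For *ERRFI1* they were *LCMT2* (0.993), *SHISA2* (0.976) and *SAMD4B* (0.960), and for *ADAM17*, which varied little, *ZNF83* (0.938), *ADAM11* (0.933) and *FRG1JP* (0.902). Between members, r was 0.889 for *HBEGF* and *AREG*, 0.854 for *HBEGF* and *EREG* and -0.868 for *HBEGF* and *TGFA*.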

How the data were processed

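Alignment by the authors used STAR on hg19 and retained only reads with 1 genomic hit. QuasR then counted exon reads of RefSeq mRNAs, and the authors deposited CPM for 26258 Entrez identifiers, each library summing to 1000000. The labels and the study's methods differ in read length, library kit and instrument. The authors' own test was edgeR. All values (100%) were whole multiples of 1 read within 0.001 read, so whole reads were recovered from the deposited CPM. Identifiers were named from RefSeq (26111 matched); positions are GENCODE's on GRCh37. The 12 columns were mapped to groups by their titles. The 13515 genes that reached 1 CPM in 2 or more libraries were fitted as log2(CPM + 0.5) with limma 3.58.1 (trend, 1 coefficient per group, R 4.3.3), two-sided, with Benjamini-Hochberg adjustment over all of them. Changes were called at P under 0.05 and 0.58 on the log2 scale, as in the study's methods, and differences of effects at an adjusted p under 0.05. The 3 most changed called genes of each list and comparison could be named, and the 3 genes nearest each called member, of which some are not reported here; *FOSL1* levels were given after its values were seen. Members and lists were chosen with earlier results of these data known. Alternatives were pseudocounts of 0.1 and 1, other filters and scalings, the replicate block, the groups compared alone, edgeR 4.0.16, DESeq2 1.42.0, other thresholds and each library left out. Steps were tested on simulated data. Figures used Python 3.11.15 and matplotlib 3.10.9.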

Additional observations from a re-analysis of the deposited data

Results flagged for a closer look

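For 7 combinations of a member and a knockdown, the effect of the knockdown in Srf differed from that in DMSO by limma with Benjamini-Hochberg adjustment. Such differences were common among all genes. For siY/T 14.2% of all genes were called below 0 and 7.81% above it, and for siATF4 21.8% and 19.3%. The members called for siY/T were *HBEGF* and *ERBB2*. *HBEGF* had a difference of 0.712 between a change of -1.08 in Srf and -1.80 in DMSO. *ERBB2* had one of -0.251 between -0.18 in Srf and 0.07 in DMSO. For siATF4, *EREG* differed by -0.698, from 1.13 in DMSO to 0.43 in Srf. *ERBB3* differed by 0.784, from -1.49 to -0.70, and *ERRFI1* by -0.685, from 0.48 to -0.20, which was a change of sign. *ERBB2* differed by -0.195 and *ADAM17* by -0.198. Those of *ERBB3* and *ERRFI1* were called under all 19 alternatives run for each. *ERBB2* for siY/T was called under 17 of 19 and *EREG* under 16 of 18. *HBEGF* for siY/T and *ERBB2* for siATF4 were each called under 12 of 19, and *ADAM17* under 8 of 19.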

How the results depend on the processing

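Of 99 values of a member in a comparison, 41 were called and 31 of these kept the call under every alternative computed. Over 663 alternatives of the called values, 617 kept the call, 46 lost it and 0 reversed. With an adjusted p under 0.05 and no fold threshold it was 4 instead of 2 for siY/T in DMSO, 7 instead of 4 for siATF4 in DMSO, 7 instead of 3 for siY/T in Srf, 8 instead of 4 for siATF4 in Srf, 9 instead of 5 for siATF4 against siY/T in Srf, 7 instead of 4 for Srf in siCtrl and 6 instead of 3 for Srf in siY/T cells. A filter at 5 CPM removed *AREG*, *EREG* and *TGFA* from the test and left 2 calls for siATF4 in DMSO and 2 each for siATF4 against siY/T in DMSO and in Srf. For siATF4 against siY/T in DMSO 3 were called with a pseudocount of 1, TMM scaling or quantile normalization, and for siY/T in Srf 5 with a pseudocount of 0.1, edgeR or DESeq2; the cause was not tested. The siY/T effect differed between treatments for 1 member, instead of 2, with no filter, with only the groups compared and with a fold threshold added, and for 0 to 4 members with each library left out. The 0 came without the second siCtrl DMSO library by limma, where 2 members had an unadjusted P under 0.05, and edgeR on all libraries called 2. The siATF4 effect differed for 5 members, 2 by DESeq2, 3 with a fold threshold added and 3 to 4 with each library left out.

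Signs changed 33 times, only among values that were not called. Of these, 9 fell on values of *HBEGF*, *EGFR* or *ERBB3* or on values with an adjusted p under 0.05 by limma. They are given here, and the others are not listed. With quantile normalization *TGFA* with siATF4 in Srf was 0.142 and the difference of siATF4 effects on *HBEGF* 0.00498. With each library left out, *EGFR* ran from -0.117 to 0.0266 with siY/T in DMSO, from -0.0719 to 0.0127 with siATF4 in Srf and from -0.00208 to 0.213 with Srf in siY/T cells, *ERBB3* from -0.0487 to 0.124 between the knockdowns in DMSO, and *HBEGF* from -0.433 to 0.0671 with Srf in siY/T cells. Quantile normalization moved the share of lowered genes among all calls from 63.7% to 48.4% for siATF4 against siY/T in DMSO and from 61.5% to 48.5% in Srf, from 24.7% to 43% for siY/T in DMSO, from 64.6% to 51.5% for siATF4 in Srf, and from 29.5% to 47.7%, 41.5% to 53.1% and 34.2% to 45.3% for Srf in siCtrl, siY/T and siATF4 cells. It shifted the median of all genes by 0.125 and 0.124 in the first pair.

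Libraries with the same replicate number were not treated as pairs in the main fit. Over 15 pairs of groups the correlation of deviations ran from -0.282 to 0.193. With 2 libraries a group these values cannot settle whether the libraries were paired. With the replicate block the siATF4 effect differed for 4 members instead of 5, and the counts of members called in the 10 other comparisons did not change. *AREG*, *EREG* and *TGFA* rest on 5 to 189 reads per library, which limits their precision. The sum of *AREG* and *AREGB* was not run.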
